A study of Homo sapiens with 24 samples.

Results

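The 10 genes described here encode cochaperones and chaperones that are classical targets of heat shock factor 1 (HSF1): the J-domain proteins DNAJB1, DNAJA4, DNAJA1 and DNAJB4, the nucleotide exchange factors HSPH1 and BAG3, the small heat shock protein HSPB1, the cytosolic HSP90 form HSP90AA1, and the mitochondrial chaperonin pair HSPD1 and HSPE1. They were taken by symbol from the deposited count tables, as 10 of 60308 genes with exon counts, and 6 of them also had intron counts above 0 among 37473 genes in the intron table. The cells were U2OS, an established human osteosarcoma line, so all values come from 1 line. Total RNA of the soluble and the insoluble part of the cytoplasm was sequenced after 4 treatments, with 3 libraries for each of the 8 treatment-by-fraction groups. Ctrl cells received 0.12% DMSO for 2 h, NaAsO2 cells received 500 µM sodium arsenite for 60 min, RK-33 cells received 6 µM of RK-33, a small-molecule inhibitor of the RNA helicase DDX3, and Combo cells received RK-33 for 1 h and then the arsenite. The DMSO control was timed to match the RK-33 exposure. All groups share the cell line and the lysis. Nuclei were spun out of each lysate at low speed, and the pellet of a faster spin is the insoluble fraction, which holds RNP granules together with anything else that sediments at that speed. The methods describe the fractionation and sequencing as done 3 times per condition, and the p-values measure the spread between these repeats.

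HSF1 is held inactive in unstressed cells, partly through chaperones, and when unfolded proteins occupy those chaperones it forms trimers that bind heat shock elements in promoters and switch on chaperone transcription. The products have different tasks. J-domain proteins bring clients to HSP70 and trigger its ATP hydrolysis, and nucleotide exchange factors reopen HSP70. Small heat shock proteins hold unfolded clients, and HSP90 completes the folding of its clients. The mitochondrial chaperonin folds proteins in the mitochondrial matrix. Arsenite reacts with protein thiols and is a classical inducer of both the heat shock response and stress granules, the cytoplasmic assemblies of untranslated mRNA and protein in which DDX3 is also found.

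A heat shock element is a run of inverted 5-base units with GAA at their core, so a head-to-head pair of units reads GAANNTTC and a tail-to-tail pair reads TTCNNGAA, each being its own reverse complement. These letters were searched in 17 RefSeq promoters of the 10 genes (GRCh38.p14), each from 250 bases before to 50 bases after an annotated start. Either pair was present in a promoter of 7 genes (DNAJB1, DNAJA4, DNAJA1, DNAJB4, HSPB1, HSP90AA1 and HSPD1), against 16.2% of all 27305 genes with a promoter in the table and 13.5% of 35116 promoters. The head-to-head pair alone was in 6.77% of all promoters and the tail-to-tail pair in 7.74%, and the 2 matches can overlap. A run of 3 adjoining units was in a promoter of DNAJA1, HSP90AA1 and HSPD1, against 0.608% of all genes. No pair was in the promoters of BAG3, HSPH1 and HSPE1, which says only that these letters are not in these windows. A match is a description of the sequence and not a measured binding site. The windows below, all upstream of the annotated start, are shown because they carry the pairs in genes that changed most or in genes with 3 units, with BAG3 and HSPH1 as genes that changed and hold no pair. Capitals mark the bases inside a pair. DNAJB1 is at chr19:14518398-14518517 on the minus strand, DNAJA4 at chr15:78264442-78264561 on the plus strand, HSP90AA1 at chr14:102087045-102087164 on the minus strand, HSPD1 at chr2:197500041-197500090 on the minus strand, BAG3 at chr10:119651260-119651379 on the plus strand and HSPH1 at chr13:31162389-31162508 on the minus strand.
DNAJB1: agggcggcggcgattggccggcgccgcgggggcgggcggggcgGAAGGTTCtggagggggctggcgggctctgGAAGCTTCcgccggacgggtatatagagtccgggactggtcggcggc
DNAJA4: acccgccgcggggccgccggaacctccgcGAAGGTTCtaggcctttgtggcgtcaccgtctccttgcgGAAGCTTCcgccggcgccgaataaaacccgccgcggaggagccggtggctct
HSP90AA1: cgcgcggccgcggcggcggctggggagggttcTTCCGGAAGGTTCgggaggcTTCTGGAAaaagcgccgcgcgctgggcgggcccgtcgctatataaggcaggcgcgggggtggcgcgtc
HSPD1: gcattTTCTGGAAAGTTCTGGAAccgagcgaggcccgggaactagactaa
BAG3: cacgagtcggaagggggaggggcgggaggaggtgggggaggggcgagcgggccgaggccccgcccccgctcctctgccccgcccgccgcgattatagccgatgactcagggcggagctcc
HSPH1: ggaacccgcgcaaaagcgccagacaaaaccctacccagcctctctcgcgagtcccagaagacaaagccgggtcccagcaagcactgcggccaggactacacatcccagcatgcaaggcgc

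Exon plus intron counts summed to 10968059 to 19799530 per library, of which introns held 13.3% to 37.5%. Levels are given as TMM-scaled CPM, the counts of the exon or of the intron table brought to a common library total, so a value is relative to the other RNAs of the same library and fraction, and fewer cells and less RNA per cell cannot be told apart. Differences are log2 fold changes ± SE from a fit of all 24 libraries with edgeR's quasi-likelihood test, adjusted by Benjamini-Hochberg over 17666 genes with exon counts or 17406 with intron counts. In what follows, a gene rose or fell where its adjusted p was under 0.05, and it was called where its log2 fold change was also at least 1 in size. Of the line's markers, VIM was at 211 to 1078 CPM, SPARC at 683 to 2688 CPM and COL1A1 at 779 to 6410 CPM, while COL1A2 was at 1.84 CPM or less and was at 0 in 4 libraries. The markers of other cell types (EPCAM, CDH1, PTPRC, PECAM1, ALB and CD3E) were at 7.91 CPM or less in every library. Replicate 3 of the NaAsO2 insoluble fraction stood apart: its log2 levels correlated with those of its group at a Pearson r of 0.935, against 0.975 to 0.995 for the other 23 libraries, and results that rest on it are given with and without it.

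Among the J-domain proteins, DNAJB1, the major stress-inducible partner of HSP70, rose in all 6 treatment comparisons. In the soluble fraction its exon level was 108, 138 and 125 CPM in Ctrl and 230.1, 224 and 245 CPM in NaAsO2. The RK-33 libraries were at 321, 387 and 469.5 CPM and the Combo libraries at 909, 899.7 and 1039.9 CPM. The 4 groups did not overlap and were ordered Ctrl, NaAsO2, RK-33, Combo. DNAJB1 exceeded Ctrl by a log2 fold change of 0.91 ± 0.15 in NaAsO2 (adjusted p = 3.31e-04) and of 1.66 ± 0.15 in RK-33 (adjusted p = 3.49e-07), and Combo exceeded NaAsO2 by 2.03 ± 0.15 (adjusted p = 5.11e-09), a 4.07-fold difference. Insoluble levels were lower, from 69.7, 76.6 and 79.4 CPM in Ctrl to 536, 535 and 723 CPM in Combo, with NaAsO2 at 148, 156 and 192 CPM and RK-33 at 254, 224 and 262 CPM. The order of the groups was the one seen in the soluble fraction, again without overlap, and the log2 fold changes were 1.13 in NaAsO2, 1.71 in RK-33 and 1.86 in Combo against NaAsO2, all called.

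DNAJA4, a DNAJA-type cochaperone of HSP70, had the largest change of the 10 genes. Its exon level in the soluble fraction was 17.4, 18.5 and 18.2 CPM in Ctrl, 23.8, 24.7 and 25.2 CPM in NaAsO2, 47.8, 45.1 and 39.97 CPM in RK-33 and 162, 152 and 222 CPM in Combo. Each group lay above the one before it, and the replicates of Combo were more spread than those of Ctrl. The change in NaAsO2 against Ctrl, 0.45 ± 0.16, did not pass the test (adjusted p = 0.0601), while RK-33 against Ctrl gave 1.30 ± 0.15 (adjusted p = 2.46e-05) and Combo against NaAsO2 gave 2.86 ± 0.16 (adjusted p = 4.19e-11). Insoluble Ctrl was at 20.1, 17.4 and 17.9 CPM and insoluble NaAsO2 at 22.98, 17.7 and 14.2 CPM, which overlapped, with a log2 fold change of -0.0034 (adjusted p = 0.989). RK-33 was at 65.9, 71.3 and 78.02 CPM and Combo at 249.9, 217 and 210.3 CPM, above both and apart from each other. Combo exceeded NaAsO2 by 3.61 ± 0.16, a 12.2-fold difference and the largest exon change of any of the 10 genes in these comparisons. Without replicate 3 of the NaAsO2 insoluble fraction that log2 fold change was 3.42.

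DNAJA1, a constitutively expressed HSP40 of the cytosol, moved less. Its soluble exon levels were 193, 221 and 211 CPM in Ctrl, 294, 276 and 292 CPM in NaAsO2, 265, 287 and 306 CPM in RK-33 and 412, 370.4 and 398 CPM in Combo, so the NaAsO2 and RK-33 groups overlapped and lay between the other groups. It rose by 0.47, 0.46 and 0.45 in NaAsO2, RK-33 and Combo against NaAsO2, and none of these was called. The insoluble Ctrl, NaAsO2 and RK-33 libraries overlapped between 129 and 166 CPM and neither comparison with Ctrl passed the test (adjusted p = 0.157 and 0.815). The Combo libraries lay above them at 229, 244 and 241 CPM, a rise of 0.79 ± 0.10 over NaAsO2 (adjusted p = 2.76e-05).

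DNAJB4, a close relative of DNAJB1, was at 18.9, 20.7 and 21.3 CPM in soluble Ctrl, 28.9, 25.3 and 25.98 CPM in NaAsO2, 31.5, 30.2 and 33.2 CPM in RK-33 and 58.5, 68.6 and 71.97 CPM in Combo. These groups did not overlap, but the differences from Ctrl in NaAsO2 (0.40 ± 0.25) and RK-33 (0.64 ± 0.25) did not pass the test (adjusted p = 0.306 and 0.16). Combo exceeded NaAsO2 by 1.31 ± 0.25 in the soluble fraction (adjusted p = 0.00188) and was called. Insoluble NaAsO2 libraries were at 18.6, 18.5 and 5.46 CPM, so that replicate 3 alone was far below the others, and Combo was at 38.3, 42.5 and 26.7 CPM. The log2 fold change of Combo over NaAsO2 there was 1.31 ± 0.25 with that library and 0.90 without it, which is under the size needed for a call. NaAsO2 against Ctrl in the insoluble fraction was 0.16 (adjusted p = 0.648) with the library and 0.58 (adjusted p = 0.00299) without it.

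BAG3 couples HSP70 to small heat shock proteins and to selective autophagy. Its soluble exon level was 40.8, 42.2 and 42.6 CPM in Ctrl, 56.2, 51.3 and 59.3 CPM in NaAsO2, 80.5, 95.5 and 96.9 CPM in RK-33 and 173, 166 and 194 CPM in Combo, in 4 groups that did not overlap. BAG3 rose in each comparison, by 0.41 ± 0.11 in NaAsO2 (adjusted p = 0.0158), by 1.12 ± 0.11 in RK-33 (adjusted p = 1.79e-06) and by 1.67 ± 0.11 in Combo against NaAsO2 (adjusted p = 7.80e-10), and the last 2 were called. The insoluble fraction showed the same order at lower levels, from 36.8, 34.3 and 34.9 CPM in Ctrl to 127, 108 and 122 CPM in Combo. There BAG3 rose by 0.57 in NaAsO2, 0.82 in RK-33 and 1.18 in Combo against NaAsO2, of which only the last was called.

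HSPH1, the large HSP110 chaperone that exchanges nucleotide on HSP70 and helps it to take aggregates apart, behaved differently in the 2 fractions after arsenite. Soluble exon levels were 117, 120.4 and 112 CPM in Ctrl, 171, 158 and 171 CPM in NaAsO2, 195, 222 and 199 CPM in RK-33 and 375, 345 and 391 CPM in Combo, without overlap. The gene rose by 0.52 ± 0.10 in NaAsO2, 0.82 ± 0.10 in RK-33 and 1.15 ± 0.10 in Combo against NaAsO2 (adjusted p = 0.00105, 2.02e-05 and 3.73e-08). Insoluble levels were 159, 178 and 185 CPM in Ctrl and 147, 138 and 127 CPM in NaAsO2, so all NaAsO2 libraries lay below all Ctrl libraries, a log2 fold change of -0.34 ± 0.095 (adjusted p = 0.00698). That difference was -0.22 (adjusted p = 0.0726) without replicate 3 of the NaAsO2 insoluble fraction. RK-33 insoluble libraries were at 346, 320.3 and 343 CPM and Combo libraries at 433, 438 and 403 CPM, above both, with 1.63 ± 0.10 for Combo over NaAsO2 (adjusted p = 2.31e-10).

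HSPB1, the small heat shock protein HSP27, had the highest exon level per length of the 10 genes in every soluble group. Its soluble levels were 443, 536 and 486 CPM in Ctrl, 695, 732 and 839 CPM in NaAsO2, 609.8, 755 and 1105 CPM in RK-33 and 911, 802 and 831 CPM in Combo. Ctrl lay below the other groups, which overlapped each other, and the RK-33 libraries spread most. Only RK-33 against Ctrl passed the test, at 0.75 ± 0.22 (adjusted p = 0.0489), and it passed in 15 of 32 alternative fits. NaAsO2 against Ctrl was 0.63 ± 0.22 (adjusted p = 0.0625). Insoluble Ctrl was at 203, 214 and 176 CPM, NaAsO2 at 189, 182 and 387 CPM, RK-33 at 182, 161 and 178 CPM and Combo at 265, 235 and 319.6 CPM, and no comparison passed the test. The highest insoluble value was again that of NaAsO2 replicate 3, and without it Combo against NaAsO2 was 0.51 (adjusted p = 0.0387).

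HSP90AA1, the stress-inducible cytosolic HSP90 and one of the proteins that restrain HSF1, was at 483, 543 and 499 CPM in soluble Ctrl, 796, 740.1 and 806 CPM in NaAsO2, 742, 797 and 771 CPM in RK-33 and 1147, 1127 and 1107 CPM in Combo. NaAsO2 and RK-33 overlapped and lay between Ctrl and Combo. The rises were 0.62 ± 0.15, 0.60 ± 0.15 and 0.53 ± 0.15 (adjusted p = 0.00707, 0.0159 and 0.0318), none of them called. Among insoluble libraries Ctrl was at 671, 781 and 864 CPM, NaAsO2 at 676, 666 and 394 CPM, RK-33 at 991, 839 and 914 CPM and Combo at 1157, 1159 and 1267 CPM. Combo lay above all other insoluble libraries. The difference of NaAsO2 from Ctrl was -0.42 (adjusted p = 0.0254) with replicate 3 of NaAsO2 and -0.13 (adjusted p = 0.33) without it, and Combo over NaAsO2 was 1.04, called, with it and 0.78, not called, without it.

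HSPD1 (HSP60) and HSPE1 (HSP10) form the folding chamber of the mitochondrial matrix and are transcribed in opposite directions from neighbouring starts. HSPD1 was at 255, 277 and 273 CPM in soluble Ctrl, 414, 357 and 425 CPM in NaAsO2, 386, 419.9 and 424 CPM in RK-33 and 557, 529 and 564 CPM in Combo, and it rose by 0.57, 0.61 and 0.46 without a call. Insoluble HSPD1 was lower in NaAsO2 (359, 373 and 344 CPM) than in Ctrl (429, 491 and 545 CPM), a log2 fold change of -0.44 ± 0.11 (adjusted p = 0.0035) without overlap. Its Combo libraries, at 502, 490.0 and 639 CPM, exceeded NaAsO2 by 0.60 ± 0.11 (adjusted p = 0.00176) and overlapped Ctrl. In a fit of these 2 groups alone with the replicate number as a block the difference was 0.60 and did not pass the test (adjusted p = 0.0856). HSPE1 in the soluble fraction was at 33.6, 37.4 and 32.97 CPM in Ctrl, 46.5, 39.7 and 46.2 CPM in NaAsO2, 47.9, 47.7 and 48.2 CPM in RK-33 and 63.9, 67.1 and 68.6 CPM in Combo. Against Ctrl it differed by 0.35 in NaAsO2 (adjusted p = 0.0729) and by 0.47 in RK-33 (adjusted p = 0.0314). Combo over NaAsO2 was 0.59 (adjusted p = 0.00546), and none of these was called. Insoluble HSPE1 levels lay in a low and a high range: Ctrl at 9.85, 10.5 and 7.24 CPM and NaAsO2 at 8.11, 9.69 and 8.78 CPM overlapped, and RK-33 at 22.4, 18.4 and 23.2 CPM and Combo at 27, 25.4 and 21.5 CPM lay above both and overlapped each other. RK-33 over Ctrl was 1.22 ± 0.14 (adjusted p = 3.37e-06) and Combo over NaAsO2 was 1.47 ± 0.14 (adjusted p = 2.84e-07), both called.

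**Figure D1:**
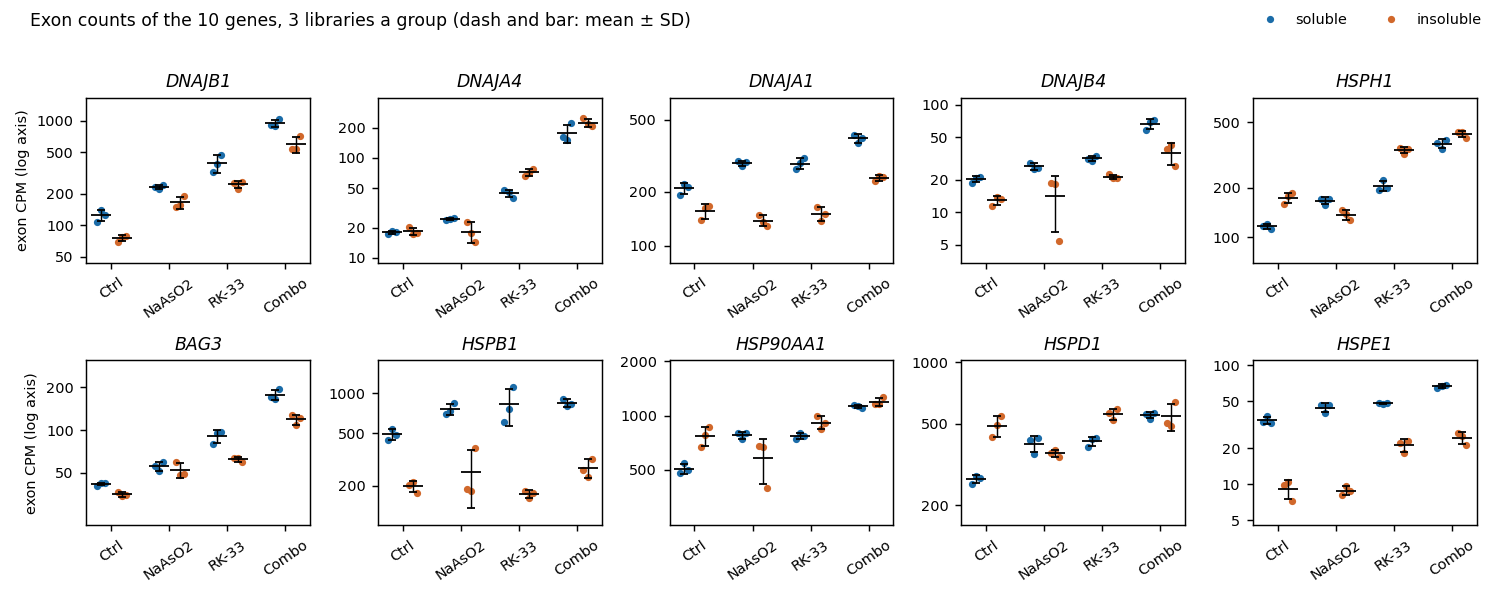
Exon levels of the 10 genes in CPM on a log axis, by treatment, with 1 point for each of 3 libraries, blue for the soluble and orange for the insoluble fraction, and the mean ± SD as a dash and bar. DNAJB1, DNAJA4 and BAG3 step up from Ctrl to Combo, with soluble DNAJB1 going from 108 to 138 CPM in Ctrl to 899.7 to 1040.0 CPM in Combo, while 1 NaAsO2 insoluble library of DNAJB4 lies far below its group at 5.46 CPM.

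Compared per kilobase of merged annotated exon, the genes spanned a wide range of levels in untreated cells. A transcript may use only part of these exons, so the order of the genes depends on the annotation. In soluble Ctrl the levels, as mean ± SD of CPM per kilobase (n = 3), were 301 ± 28.8 for HSPB1, 104 ± 6.38 for HSP90AA1, 78.03 ± 5.40 for DNAJA1, 35.8 ± 1.56 for HSPD1 and 23.2 ± 1.58 for HSPE1. Below them DNAJB1 (16.3 ± 1.97), BAG3 (15.3 ± 0.352) and HSPH1 (13.9 ± 0.496) followed. The mean of BAG3 lay within 1 SD of that of DNAJB1, and the mean of HSPH1 just outside it. DNAJB4 (5.60 ± 0.345) and DNAJA4 (2.93 ± 0.0910) were lowest. In soluble Combo HSPB1 (523 ± 34.6), HSP90AA1 (230.0 ± 4.12) and DNAJA1 (148 ± 7.97) were still first, followed by DNAJB1 (124 ± 10.3). HSPD1 was at 73.4 ± 2.47 and BAG3 at 64.9 ± 5.34, HSPE1 (44.5 ± 1.59) and HSPH1 (44.2 ± 2.79) did not differ beyond their spread, and DNAJA4 (29.03 ± 6.13) was now above DNAJB4 (18.3 ± 1.93).

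Counted over the 10 genes, exon calls were most frequent between Combo and NaAsO2. After NaAsO2, 0 genes were called in the soluble fraction by edgeR, and 0 by DESeq2, against 0.492% of all genes called higher. There 6 of the 10 rose, against 13.3% of all genes with an adjusted p under 0.05 in either direction, and 9 had an unadjusted p under 0.05. Only DNAJB1 was called higher in the insoluble fraction, as 1 of 10, against 5.61% of all genes. After RK-33, 3 were called higher in the soluble fraction (DNAJB1, DNAJA4 and BAG3) against 0.283% of all genes, and 3 in the insoluble fraction (DNAJB1, DNAJA4 and HSPE1) against 0.702%. Between Combo and NaAsO2, 5 were called higher in the soluble fraction (DNAJB1, DNAJA4, DNAJB4, BAG3 and HSPH1) against 2.41% of all genes. There were 7 called higher in the insoluble fraction, these 5 with HSP90AA1 and HSPE1, against 3.11%, and 5 without NaAsO2 insoluble replicate 3. None of the 10 was called lower in these 6 comparisons. The median log2 fold change of the 10 genes, beside that of all genes tested, was 0.49 beside 0.033 in NaAsO2, 0.70 beside -0.0097 in RK-33 and 0.87 beside -0.037 in Combo against NaAsO2 in the soluble fraction. The insoluble medians were -0.027 beside -0.022, 0.78 beside -0.0040 and 1.24 beside 0.0062. NaAsO2 and RK-33 were both compared with the same Ctrl libraries, and Combo with the same NaAsO2 libraries, so the comparisons are not independent of one another.

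Whether arsenite acted differently in cells pre-treated with RK-33 was tested by the interaction term, which sets the NaAsO2 effect with RK-33 (Combo against RK-33) against that without it (NaAsO2 against Ctrl). For DNAJA4 the arsenite effect was larger with RK-33 by 1.56 ± 0.21 in the soluble fraction (adjusted p = 6.98e-04) and by 1.66 ± 0.21 in the insoluble fraction (adjusted p = 6.50e-05), the only called value among the 10 genes in either fraction. The share of all genes called higher in this test was 0.917% in the soluble fraction and 2.48% in the insoluble fraction. The insoluble term was also above 0 for DNAJA1 (0.84 ± 0.14, adjusted p = 7.55e-04), HSPH1 (0.67 ± 0.13, adjusted p = 0.00262) and HSP90AA1 (0.80 ± 0.21, adjusted p = 0.0142). An adjusted p under 0.05 was reached by 11.6% of all genes in this insoluble test. For DNAJB1 the 2 arsenite effects were not told apart, with a difference of 0.36 (95% interval -0.037 to 0.76) in the soluble and 0.14 (-0.26 to 0.55) in the insoluble fraction. BAG3 gave 0.55 ± 0.15 in the soluble fraction (adjusted p = 0.0584), which did not pass the test.

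Intron counts are of fragments within introns, which may come from unspliced RNA, excised introns or lariats, and these sources were not told apart. Intron counts were above 0 for DNAJA4, DNAJA1, BAG3, HSPH1, HSP90AA1 and HSPD1. DNAJB1 (chromosome 19, 14514769 to 14560391, minus strand, GRCh38.p13), DNAJB4 (chromosome 1, 77979175 to 78017964, plus strand) and HSPE1 (chromosome 2, 197500140 to 197503449, plus strand) were listed at 0 intron counts in all 24 libraries. All of their intron bases are shared with introns of other genes, and the counting left fragments that overlap several genes unassigned, so their intron RNA was not measured. HSPB1 (chromosome 7, 76302673 to 76304295, plus strand) has no intron entry because its merged exons cover the gene. Of the 6 genes with counts, DNAJA1 (chromosome 9, 33025273 to 33039907, plus strand), BAG3 (chromosome 10, 119651380 to 119677819, plus strand) and HSPH1 (chromosome 13, 31134973 to 31162388, minus strand) overlap no other gene. HSP90AA1 (chromosome 14, 102080742 to 102139699, minus strand) shares no intron bases, but its 53861 intron bases reach a start far upstream. DNAJA4 (chromosome 15, 78264086 to 78282196, plus strand) shares 9.41% of its intron bases with other genes and HSPD1 (chromosome 2, 197486584 to 197516737, minus strand) shares 69.7%.

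DNAJA4 introns gave the largest intron change between Combo and NaAsO2. Soluble intron levels were 34.05, 37.2 and 30.4 CPM in Ctrl, 69.7, 66.01 and 89.6 CPM in NaAsO2, 179, 186 and 184 CPM in RK-33 and 904, 859 and 1016 CPM in Combo. Insoluble intron levels were 22.7, 21.6 and 27.4 CPM in Ctrl, 61.7, 42.01 and 50.7 CPM in NaAsO2, 189, 164 and 202 CPM in RK-33 and 849.5, 787 and 969.9 CPM in Combo. The 4 treatments did not overlap in either fraction. Combo exceeded NaAsO2 by 3.63 ± 0.16 in the soluble fraction (adjusted p = 1.41e-15) and by 4.07 ± 0.16 in the insoluble fraction (adjusted p = 9.19e-17), which is a 16.8-fold difference. In contrast to the exons, the introns were also called in NaAsO2 against Ctrl, at 1.15 and 1.11 in the 2 fractions.

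Among the 6 genes, HSPH1 introns had the largest change in RK-33 against Ctrl. They were at 26.2, 30.9 and 22.8 CPM in soluble Ctrl and 259, 270.0 and 261 CPM in soluble RK-33, a rise of 3.31 ± 0.17 (adjusted p = 8.12e-14). Insoluble introns were at 33.97, 29.2 and 34.5 CPM in Ctrl and 586, 505 and 594 CPM in RK-33, a rise of 4.11 ± 0.17 (adjusted p = 1.56e-16) or 17.2-fold. NaAsO2 libraries were intermediate at 79.3, 74.8 and 86.3 CPM in the soluble fraction and 122, 110.0 and 82.5 CPM in the insoluble fraction, without overlap with either. Combo libraries were at 530.4, 544 and 521 CPM in the soluble fraction and 849, 862 and 601 CPM in the insoluble fraction.

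BAG3 and DNAJA1 introns separated all 4 treatments in the soluble fraction. BAG3 introns were at 43.4, 33.1 and 29.7 CPM in Ctrl, 99.02, 98.2 and 103 CPM in NaAsO2, 239, 258 and 267 CPM in RK-33 and 776, 773 and 896 CPM in Combo. DNAJA1 introns were at 66.6, 68.03 and 56.4 CPM in Ctrl, 164, 167 and 182 CPM in NaAsO2, 244, 253 and 265 CPM in RK-33 and 559, 548 and 499 CPM in Combo. RK-33 exceeded Ctrl in the insoluble fraction by 3.30 ± 0.18 for BAG3 and 2.01 ± 0.18 for DNAJA1. DNAJA1 introns in NaAsO2 insoluble libraries were at 149, 140.3 and 279 CPM, so replicate 3 lay above the RK-33 libraries (188, 188 and 207 CPM) and the other 2 below them.

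HSP90AA1 introns were at 33.7, 33.1 and 35.8 CPM in soluble Ctrl, 69.2, 59.5 and 77.1 CPM in NaAsO2, 105, 134 and 178 CPM in RK-33 and 202, 201 and 158 CPM in Combo, where the last 2 groups overlapped. HSPD1 introns were the only ones of the 6 genes that did not pass the test in NaAsO2 against Ctrl in the soluble fraction. They were at 47.6, 54.6 and 47.4 CPM in Ctrl and 54.8, 47.6 and 53.1 CPM in NaAsO2, with a difference of 0.054 ± 0.24 (95% interval -0.41 to 0.51, adjusted p = 0.927). RK-33 took them to 204, 227 and 255 CPM and Combo to 230.2, 231 and 217 CPM, both above Ctrl and NaAsO2. Insoluble HSPD1 introns in NaAsO2 were at 54.2, 60.2 and 141 CPM against 50.6, 43.8 and 48.2 CPM in Ctrl, and the rise of 0.83 (adjusted p = 0.00582) was 0.26 (adjusted p = 0.23) without replicate 3.

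**Figure D2:**
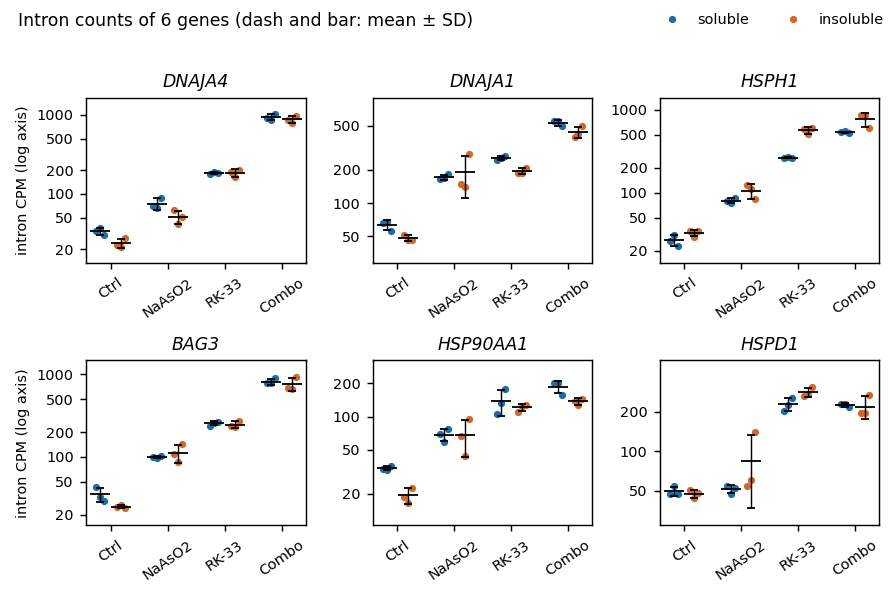
Intron levels in CPM of the intron table on a log axis for the 6 genes with intron counts, drawn as for the exons (3 libraries a group, mean ± SD). DNAJA4 climbs from 30.4 to 37.2 CPM in soluble Ctrl to 859 to 1016 CPM in soluble Combo, and HSPD1 overlaps Ctrl in soluble NaAsO2 libraries and is higher with RK-33.

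By counts, 5 of the 6 genes were called higher in introns in NaAsO2 against Ctrl in each fraction, all but HSPD1, against 0.925% of all genes in the soluble fraction and 10.1% in the insoluble fraction. HSP90AA1 in the soluble fraction was at the edge of that call, at 1.000. All 6 were called higher in RK-33 against Ctrl, by 1.99 to 3.31 in the soluble fraction against 0.62% of all genes and by 2.01 to 4.11 in the insoluble fraction against 0.689%. All 6 were also called higher in Combo against NaAsO2, by 1.45 to 3.63 against 5.37% in the soluble and by 1.00 to 4.07 against 6.34% in the insoluble fraction.

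The intron change was compared with the exon change of the same gene in 1 fit of both tables, over 13116 genes, in which a value above 0 means that introns changed by more than exons. In RK-33 against Ctrl in the soluble fraction all 6 genes were called, from DNAJA4 at 1.14 ± 0.18 (adjusted p = 3.64e-04) to HSPH1 at 2.50 ± 0.16 (adjusted p = 3.54e-11), against 0.61% of all genes called higher. There were 5 called in the insoluble fraction, up to HSPH1 at 3.15 ± 0.15 (adjusted p = 3.55e-14), against 2.15%, and DNAJA4 lay just under the size limit at 0.995 ± 0.18 (adjusted p = 4.84e-04). For HSP90AA1 (2.40 ± 0.28), HSPD1 (2.38 ± 0.22) and DNAJA1 (2.06 ± 0.20) the insoluble introns changed while the exons of these genes did not pass the test.

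In NaAsO2 against Ctrl the fractions differed in their counts. In the soluble fraction 2 genes were called, BAG3 (1.10 ± 0.19, adjusted p = 2.48e-04) and HSPH1 (1.08 ± 0.16, adjusted p = 5.57e-05), against 1.92% of all genes, and HSPD1 was at -0.51 ± 0.24 (adjusted p = 0.142). All 6 were called in the insoluble fraction, from 1.12 for DNAJA4 to 2.23 for HSP90AA1, against 8.84%, and 4 were called without NaAsO2 insoluble replicate 3, where DNAJA4 was at 0.91 and HSPD1 at 0.61. Scaling both tables by the sum of exon and intron counts, a choice under which the median gene also moved by -0.34 in the soluble fraction and -0.78 in the insoluble fraction, gave 0 and 3 calls. In Combo against NaAsO2, 4 genes were called in the soluble fraction (DNAJA1 1.19, BAG3 1.35, HSPH1 1.58 and HSPD1 1.66) against 4.46%. There were 2 called in the insoluble fraction (BAG3 1.58 and HSPH1 1.24) against 4.16%, while DNAJA4 (0.45 ± 0.17, adjusted p = 0.0614) and HSP90AA1 (-0.038 ± 0.26, adjusted p = 0.943) did not pass the test, nor did DNAJA1 (0.49 ± 0.19, adjusted p = 0.0773). Without NaAsO2 insoluble replicate 3 all 3 passed, at 0.64 for DNAJA4 (adjusted p = 0.00613), 0.52 for HSP90AA1 (adjusted p = 0.0413) and 0.90 for DNAJA1 (adjusted p = 7.28e-06), and HSPD1 went from 0.89 to 1.42, which brought the calls to 3.

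**Figure D3:**
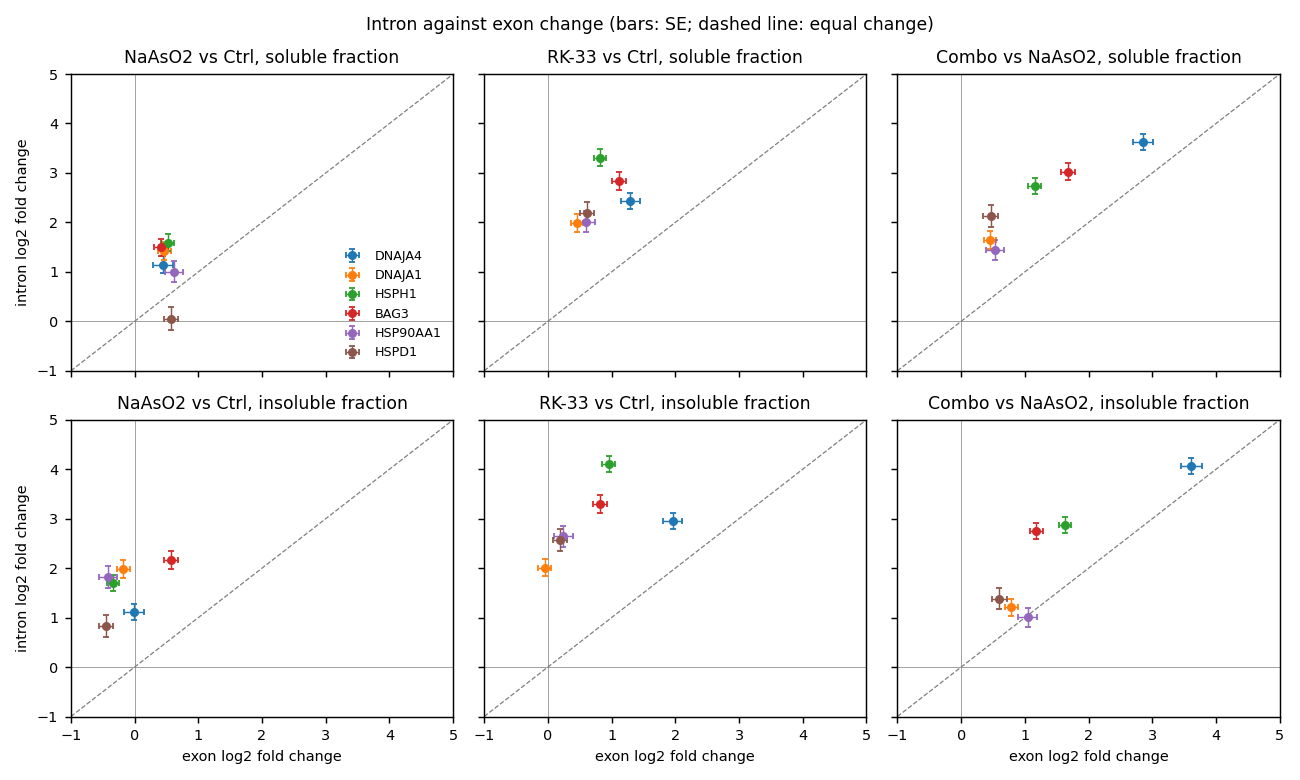
Intron against exon log2 fold change of the 6 genes in each comparison and fraction, with SE bars and a dashed line of equal change. In RK-33 against Ctrl in the soluble fraction all 6 points lie above the line, with HSPH1 at 3.31 in introns and 0.82 in exons, and in Combo against NaAsO2 in the insoluble fraction HSP90AA1 lies on the line at 1.00 and 1.04, which without NaAsO2 insoluble replicate 3 were 1.29 in introns and 0.78 in exons.

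Set per base, intron coverage remained below exon coverage in every library. In DNAJA4 it was 36.7%, 30.2% and 30.04% of exon coverage in soluble Ctrl and 83.6%, 89.6% and 98.3% in soluble Combo, over the bases it shares with no other gene. The 2 groups were far apart. Exon length here merges all annotated exons of a gene, 6151 unshared bases in DNAJA4, of which a transcript may use only a part. Exon coverage can then be understated, and the size of these percentages depends on the annotation. In HSPH1 the share was 3.06%, 2.80% and 2.65% in soluble Ctrl, 17.6%, 13.3% and 12.1% in soluble RK-33 and 32.8%, 34.3% and 33.4% in insoluble RK-33, its highest group. BAG3 went from 2.80% ± 0.862 (SD, n = 3) in soluble Ctrl to 15.2% ± 3.21 in soluble Combo and 23.8% ± 1.85 in insoluble Combo. DNAJA1 went from 1.95% ± 0.377 to 8.63% ± 1.22 in the soluble fraction. HSPD1 was at 6.38% ± 0.553 in soluble Ctrl, 3.53% ± 0.602 in NaAsO2, 16.9% ± 2.07 in RK-33 and 14.2% ± 2.12 in Combo, so NaAsO2 was its lowest soluble group. HSP90AA1 stayed under 1% in all libraries, over an intron length that includes the stretch to its far upstream start. MALAT1 and NEAT1, RNAs that are usually retained in the nucleus, were at 5454 to 16371 CPM and 260.0 to 773 CPM in the soluble and at 1075 to 7175 CPM and 807 to 3484 CPM in the insoluble fraction. In the insoluble fraction MALAT1 was called lower in NaAsO2 against Ctrl (-1.64) and higher in Combo against NaAsO2 (1.15), and the part of these RNAs in the intron counts was not tested.

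**Figure D4:**
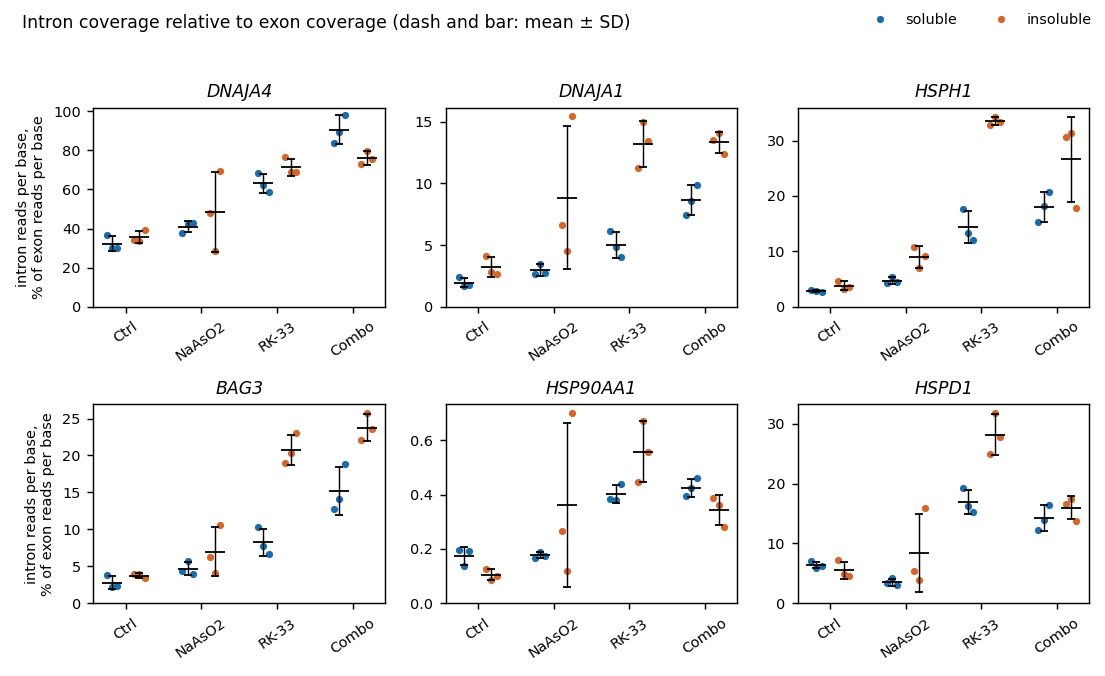
Intron coverage as a percent of exon coverage per base for the 6 genes, by treatment and fraction, with 3 libraries a group and the mean ± SD, on a separate linear axis from 0 for each gene. DNAJA4 ends at 83.6% to 98.3% in soluble Combo, HSPH1 peaks at 32.8% to 34.3% in insoluble RK-33, and 1 NaAsO2 insoluble library lies far above its group in DNAJA1, HSP90AA1 and HSPD1.

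DNAJA4 lies beside genes on the opposite strand, and the counting took no account of strand. Its exons share 6.68% of their bases with other genes, and part of its introns lies over introns of WDR61, a subunit of the PAF1 and SKI complexes that is read from the other strand. WDR61 exon levels in the insoluble fraction were 15.7, 14.9 and 16.1 CPM in NaAsO2 and 49.9, 49.7 and 55.4 CPM in Combo, without overlap, a log2 difference of 1.73 (adjusted p = 3.83e-09). In the soluble fraction WDR61 exons were at 37.7, 33.8 and 41.7 CPM in NaAsO2 and 50.99, 45.7 and 61.9 CPM in Combo. WDR61 introns were at 22.9, 12.7 and 17.5 CPM in soluble NaAsO2 and 32.9, 33.8 and 34.02 CPM in soluble Combo, and differed by 0.95 there and by 1.15 in the insoluble fraction. WDR61 introns were lower in NaAsO2 than in Ctrl (-0.83 in the soluble fraction and -0.999 in the insoluble fraction), where DNAJA4 introns were higher. Fragments over bases that DNAJA4 shares with another gene in the same table stayed unassigned. In the rest of DNAJA4, reads of an antisense RNA cannot be told apart from its own.

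Between the fractions of a treatment, HSPE1 and HSPB1, the 2 genes with the fewest exon bases of the 10, were lower in the insoluble fraction under all 4 treatments. The log2 fold change of HSPE1, insoluble over soluble, was -1.92 ± 0.14 in Ctrl, -2.31 ± 0.14 in NaAsO2, -1.17 ± 0.13 in RK-33 and -1.43 ± 0.13 in Combo. That of HSPB1 was -1.30 ± 0.23, -1.58 ± 0.23, -2.25 ± 0.23 and -1.63 ± 0.23 in the same order. For both genes every insoluble library lay below every soluble library. The members called lower were these 2 in Ctrl against 10.7% of all genes, in RK-33 against 15.2% and in Combo against 13.1%. In NaAsO2, 3 were called lower, the third being DNAJA1 at -1.06 ± 0.10 (-0.98 without replicate 3 of the insoluble fraction), against 16% of all genes.

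HSPH1, HSP90AA1 and HSPD1 had the opposite position in untreated cells, higher in the insoluble fraction by 0.58 ± 0.10, 0.60 ± 0.15 and 0.87 ± 0.11 (adjusted p = 3.34e-05, 0.00161 and 1.95e-06). With these 3 higher and 5 lower, 8 of the 10 genes passed the test in Ctrl, against 51% of all genes. The lower ones were HSPE1, HSPB1, DNAJB1 (-0.72), DNAJB4 (-0.64) and DNAJA1 (-0.42). After NaAsO2 HSPH1, HSP90AA1 and HSPD1 were at -0.28, -0.43 and -0.15, and without replicate 3 of the insoluble fraction at -0.19, -0.18 and -0.084, where none of the 3 passed the test (adjusted p = 0.0977, 0.153 and 0.558). The change of the fraction difference from Ctrl to NaAsO2 was -0.85 ± 0.13 for HSPH1, -1.03 ± 0.21 for HSP90AA1, -1.02 ± 0.16 for HSPD1 and -0.64 ± 0.14 for DNAJA1 (adjusted p = 1.06e-04, 9.65e-04, 1.06e-04 and 0.00225), so the insoluble-over-soluble difference of these 4 genes was lower in NaAsO2 than in Ctrl. An adjusted p under 0.05 was reached by 22.3% of all genes in this test. HSP90AA1 and HSPD1 were called lower, against 4.99% of all genes, and 0 were called without NaAsO2 insoluble replicate 3, where they were at -0.74 and -0.90 with adjusted p of 0.000301 and 7.55e-05. In Combo against NaAsO2 0 genes were called in the change of the fraction difference by edgeR and 0 by DESeq2, against 0.142% of all genes called in either direction, with 6 genes at an unadjusted p under 0.05. HSPE1 alone passed the test there, at 0.88 ± 0.19 (adjusted p = 0.0347), and it passed in 18 of 33 alternative fits.

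**Figure D5:**
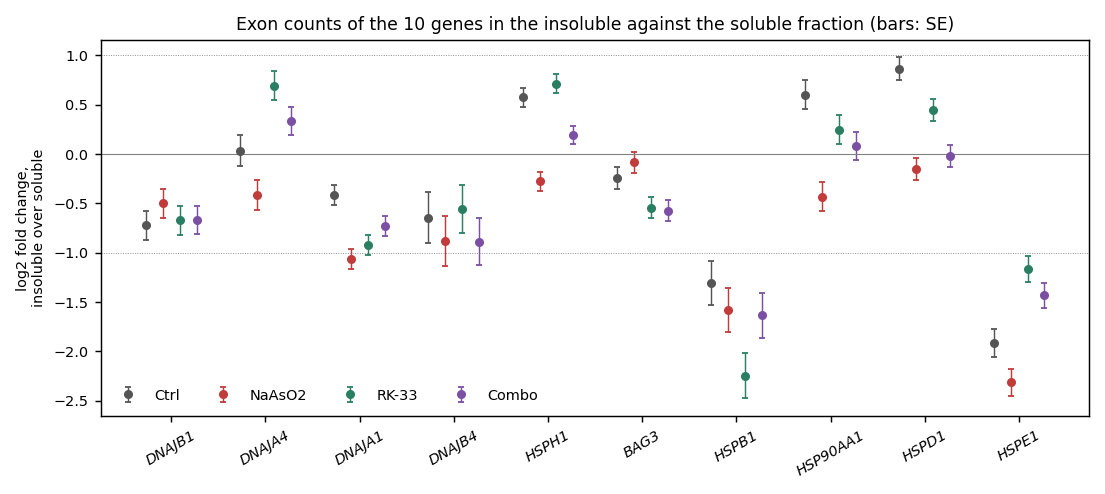
Log2 fold change of exon counts in the insoluble over the soluble fraction for the 10 genes, with 1 point per treatment and SE bars, where 0 is equal level and dotted lines mark a log2 fold change of 1 in either direction. HSPB1 and HSPE1 lie below -1 under all treatments, and HSPH1, HSP90AA1 and HSPD1 lie above 0 in Ctrl and below 0 in NaAsO2, where without replicate 3 of the insoluble fraction they were at -0.19, -0.18 and -0.084.

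Other genes of the chaperone network were counted in lists, some of which share genes, and the genes behind small counts were named after their values were seen. Of all genes, 0.492%, 0.283% and 2.41% were called higher in soluble exons in NaAsO2, RK-33 and Combo against NaAsO2. In insoluble exons these shares were 5.61%, 0.702% and 3.11%, with 8.37% called lower in NaAsO2 and 1.16% in RK-33. All-gene medians were 0.033, -0.0097 and -0.037 in the soluble and -0.022, -0.0040 and 0.0062 in the insoluble fraction. The all-gene share at an unadjusted p under 0.05 was not counted. Of 24 other HSF1 targets 23 were tested in exons. In the soluble fraction 4 were called higher in NaAsO2, 4 in RK-33 and 6 in Combo against NaAsO2, with medians of 0.45, 0.60 and 0.34. HSPA6, an HSP70 form that is nearly silent in unstressed cells, was among them in each comparison, at 2.25 ± 0.41, 4.28 ± 0.36 and 5.61 ± 0.30, as were HSPA1A and HSPA1B. CHORDC1 was also called in RK-33, and CHORDC1, IER5 and ZFAND2A in Combo. Insoluble exons had 5, 5 and 7 calls higher, with medians of 0.053, 0.24 and 0.67. HSPA6, HSPA1A and HSPA1B were again higher in each comparison, joined by IER5 (2.03) and DEDD2 (1.49) in NaAsO2 and by DNAJB6 (1.14) and CHORDC1 (1.99) in RK-33. Introns of these targets, 19 of them tested, were called higher in 6, 16 and 15 genes in the soluble fraction and in 11, 14 and 13 in the insoluble fraction. The shares of all genes called higher in introns were 0.925%, 0.62% and 5.37% in the soluble fraction. They were 10.1%, 0.689% and 6.34% in the insoluble fraction.

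The other J-domain proteins, 33 tested of 34, had 0 calls by edgeR in the soluble fraction, with 17, 14 and 5 at an unadjusted p under 0.05 in NaAsO2, RK-33 and Combo against NaAsO2. In the insoluble fraction DNAJC9 was called higher in NaAsO2 (1.11), SEC63 (-1.57) and DNAJC15 (-1.24) were called lower there, and DNAJB6 was called higher in RK-33 and in Combo (1.23). The NaAsO2 calls among the 33 stand against 5.61% of all genes called higher and 8.37% called lower. Among other nucleotide exchange factors, 11 tested of 12, the 1 exon call was BAG1, higher in insoluble NaAsO2 (1.40), against 5.61% of all genes. In the other comparisons 1 to 5 of these factors had an unadjusted p under 0.05. Of 9 other small heat shock proteins 5 were tested. They had 0 calls by edgeR in the soluble fraction, where 2 or 3 had an unadjusted p under 0.05, and in the insoluble fraction HSPB3 was lower in RK-33 (-1.03) and CRYAB higher in Combo against NaAsO2 (1.06).

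Among 19 other HSP90 forms and HSP90 cochaperones 1 was called higher in each comparison and fraction. It was CHORDC1 in RK-33 and in Combo (1.25 and 1.56 in the soluble fraction), UNC45A in soluble NaAsO2 (1.02) and STUB1 in insoluble NaAsO2 (1.01), where HSP90B1 was called lower. The 1 of 19 in insoluble NaAsO2 is near the 5.61% of all genes called higher there. Introns of this list were called higher in 3, 6 and 8 of 17 genes in the soluble fraction, against 0.925%, 0.62% and 5.37% of all genes. The 14 subunits of the cytosolic chaperonin and prefoldin had 0 exon calls by edgeR, with 3 to 11 at an unadjusted p under 0.05, and so had the 7 heat shock factors and regulators, with 1 to 4. For the chaperonin and prefoldin list the intron change was smaller than the exon change in NaAsO2 in the soluble fraction. There 7 of 13 were called lower, against 3.81% of all genes, with a median of -1.01 beside -0.038 for all genes.

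Of the listed genes with the smallest adjusted p in NaAsO2 against Ctrl, HSPA1A (1.68 ± 0.21, adjusted p = 2.40e-05) and HSPA1B (1.68 ± 0.23, adjusted p = 7.81e-05) were higher in the soluble fraction. They encode the same inducible HSP70 from nearly identical copies, so fragments can be split between them. In the insoluble fraction HSP90B1 (-1.65 ± 0.12, adjusted p = 2.89e-09) and SEC63 (-1.57 ± 0.19, adjusted p = 2.93e-06) were lower. HSP90B1 is the HSP90 of the endoplasmic reticulum, and SEC63 is a J-domain protein of the membrane of that compartment.

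Across the 24 libraries the genes whose exon levels were most like those of each member were found by Pearson's r of log2 CPM among 10260 genes. These r values describe likeness over 8 groups that share treatments and fractions. DNAJB1 was most like DDIT3 (r = 0.979), ATF3 (r = 0.977) and BAG3 (r = 0.975), and BAG3 was in turn most like DNAJB1, ATF3 (r = 0.963) and DDIT3 (r = 0.958). DDIT3 and ATF3 encode stress-induced transcription factors of the integrated stress response. DNAJA4 was most like EIF4A2 (r = 0.973), DNAJB6 (r = 0.952) and HSPH1 (r = 0.949), and DNAJA1 was most like UAP1 (r = 0.957), DNAJB5 (r = 0.954) and AHSA1 (r = 0.953). HSP90AA1 was most like HSPH1 (r = 0.913) and HSPD1 was most like HSP90AA1 (r = 0.869). HSPE1 was most like CRYAB (r = 0.965), and HSPB1 was most like JPT1 (r = 0.986), AURKB (r = 0.985) and UBB (r = 0.985). The best match of DNAJB4 was ZSCAN31 (r = 0.923).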

How the data were processed

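The authors aligned reads of directional, rRNA-depleted libraries to GRCh38.p13 with STAR 2.7.2b (the submitters' notes also name SAMtools 1.2) and deposited raw counts of fragments that featureCounts of the Subread package assigned, without strand, to exons and to introns of GENCODE genes. Fragments overlapping several genes stayed unassigned. Spike-in RNA that the methods describe was not used here, so levels are relative within a library. The 24 libraries were grouped by their labels into 8 groups of 3. Members and gene lists were chosen with earlier results of these data known.

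Genes averaging 1 CPM or more were fitted with edgeR 4.0.16 (R 4.3.3, limma 3.58.1) by TMM scaling and the quasi-likelihood test in a model of group, with Benjamini-Hochberg adjustment, and called at an adjusted p under 0.05 and a log2 fold change of at least 1 in size. The likelihood ratio test (glmLRT) of edgeR, which the study names, was run as an alternative. Intron and exon counts of a gene were compared in 1 fit with a term for each library and terms for intron by group. Likeness used genes averaging 10 CPM or more, for each member the 3 with the highest r. All 10 members were reported in every comparison, and from the lists only counts, medians and, per fraction, the 3 called genes with the smallest adjusted p in NaAsO2 against Ctrl, with WDR61 as a gene overlapping DNAJA4. The values of 1 gene that this rule names are not reported here. Depth was 8627294 to 15376554 exon and 1621536 to 6092652 intron counts, which limits precision for genes at a few CPM. Promoters came from RefSeq (GRCh38.p14). Alternatives were other scalings and filters, the likelihood ratio test, DESeq2 1.42.0, the compared groups alone, blocks and each library left out. The fits were tested on simulated data, where fold changes and SEs were recovered without bias, but the intron-minus-exon test missed many 2-fold differences of genes with low intron counts.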

Additional observations from a re-analysis of the deposited data

Results flagged for a closer look

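Of 40 tests of whether an effect differed between groups, made for the 10 genes, 10 passed at an adjusted p under 0.05 with edgeR, and each is given here as a value. Of all genes, 2.09% passed for the arsenite effect with and without RK-33 in the soluble fraction and 11.6% in the insoluble fraction. For the fraction difference 22.3% passed from Ctrl to NaAsO2 and 0.357% from NaAsO2 to Combo. The arsenite effect was larger after RK-33 for DNAJA4, by 1.56 ± 0.21 in the soluble fraction and 1.66 ± 0.21 in the insoluble fraction. In the insoluble fraction it was also larger for DNAJA1 (0.84 ± 0.14), HSPH1 (0.67 ± 0.13) and HSP90AA1 (0.80 ± 0.21), where HSP90AA1 was at 0.53 (adjusted p = 0.0126) without replicate 3 of the NaAsO2 insoluble fraction.

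The difference between the insoluble and the soluble fraction was lower in NaAsO2 than in Ctrl for DNAJA1 (-0.64 ± 0.14), HSPH1 (-0.85 ± 0.13), HSP90AA1 (-1.03 ± 0.21) and HSPD1 (-1.02 ± 0.16). These 4 kept an adjusted p under 0.05 without that library, at -0.52, -0.72, -0.74 and -0.90. For HSPE1 the fraction difference was higher in Combo than in NaAsO2 (0.88 ± 0.19, adjusted p = 0.0347). It was 0.70 to 0.96 in 33 alternative fits, and its adjusted p was under 0.05 in 18 of them.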

How the results depend on the processing

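The number of members called in each of 26 comparisons was recomputed in 835 refits and was within 1.5 times its reported value in 808. The change of the fraction difference from Ctrl to NaAsO2 was least stable: 2 members were called, against 0 with RLE size factors, library sizes alone, no filter, a mean of at least 5 CPM, DESeq2 or the compared groups alone, since HSP90AA1 and HSPD1 lay close to a log2 change of 1 in size. When single libraries were left out it was 0 to 2, with 0 without Ctrl soluble replicate 1 or 2, Ctrl insoluble 3, NaAsO2 insoluble 1 or 3, RK-33 soluble 2, RK-33 insoluble 3, any Combo soluble library, or Combo insoluble 2 or 3, and 1 without Ctrl soluble 3, NaAsO2 soluble 1 or 3, or RK-33 soluble 1. Combo against NaAsO2 in insoluble exons fell from 7 to 3 when the compared groups were fitted alone, with 6 libraries in the fit. With the exon plus intron total as library size, the intron-minus-exon count went from 2 to 0 in NaAsO2 soluble, from 6 to 3 in NaAsO2 insoluble and from 6 to 2 in RK-33 soluble. Leaving out 1 library gave 1 to 3 for NaAsO2 soluble, with 1 without Ctrl soluble replicate 3. The cause was not tested.

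Of 6830 refitted member values 6706 kept their side of the threshold, 96 lost and 28 gained a call, and 0 called values changed sign. Across the fractions of a treatment, libraries of the same number correlated at -0.32 to 0.34 in their deviations, over 0.1 in 3 of 12 pairs. Among the groups compared here, every same-numbered pair was over 0.1 only for insoluble NaAsO2 and Combo (0.667, 0.679 and 0.821). Groups not compared here also deviated together by number. Insoluble NaAsO2 and soluble RK-33 were at 0.599, 0.439 and 0.682, and soluble RK-33 and insoluble Combo at 0.339, 0.331 and 0.605. Whether the number stands for a shared preparation was not tested. With insoluble NaAsO2 and Combo alone and the number as a block, a fit chosen after seeing the data, the members called stayed at 7 in exons, 6 in introns and 2 in introns minus exons. HSPD1 no longer passed the test there in exons (0.60, adjusted p = 0.0856) or in introns minus exons (0.91, adjusted p = 0.11). With the replicate number as a block HSP90AA1 introns in NaAsO2 soluble were at 0.995 and not called. With the replicate number within each treatment as a block, DNAJB4 in insoluble against soluble NaAsO2 was at -1.02 and called. The labels do not say whether same-numbered fractions share a lysate.

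The share of calls in the higher direction, over all genes, moved by more than 10 percentage points with other scalings. With library sizes alone it went, in exons, from 29.4% to 8.69% (NaAsO2 soluble), 40.1% to 29.2% (NaAsO2 insoluble), 54.9% to 39.8% (RK-33 soluble), 37.7% to 51.9% (RK-33 insoluble), 47.8% to 68.7% (fraction difference, NaAsO2 minus Ctrl) and 24% to 13.04% (Combo minus NaAsO2). In introns it went from 75.9% to 62.5% (RK-33 insoluble), 85.7% to 73.3% (Combo soluble) and 61.7% to 47.8% (Combo insoluble). For introns minus exons it went from 33.5% to 54.6% (NaAsO2 soluble), 73.4% to 88.7% (RK-33 soluble), 80.6% to 52.3% (RK-33 insoluble), 81.5% to 45.4% (Combo soluble) and 59.4% to 33.0% (Combo insoluble). With the exon plus intron total it was 3.31% and 3.42% in the soluble and insoluble NaAsO2 comparisons and 97.4% and 95.0% in those of Combo, against 58.6% with TMM in insoluble NaAsO2. RLE size factors gave 46.7% there and 50.6% instead of 62.4% for the insoluble interaction. Library sizes alone shifted the median gene by -0.18 in NaAsO2 soluble exons and by 0.11 in Combo soluble exons.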
